A study of Homo sapiens with 40 samples.

Results

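The human mitochondrial genome carries 37 genes, 13 for proteins of the respiratory chain, 2 for ribosomal RNAs and 22 for transfer RNAs, and its transcripts were followed here through the 20 groups of an RNA-seq time course in HER2-positive breast cancer cells. A gene was a member where a row of the count table had exactly its RefSeq name. Rows were found for 24 of the 37, among 44584 rows in all: RNR1 and RNR2, the RNAs of the small and the large mitochondrial ribosomal subunit, and all 22 tRNA genes (TRNA to TRNY). The 13 protein genes (ND1 to ND6 with ND4L, COX1 to COX3, ATP6, ATP8 and CYTB) are not analysed here.

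The study asked how the endogenous ligands EGF, which binds EGFR, and HRG (heregulin), which binds HER3 and HER4, act on cells that differ in their response to trastuzumab, an antibody against HER2. RNA was sequenced from BT474, a HER2-amplified breast cancer line, and from BT474R, clone 5 of BT474 cells that had been kept in trastuzumab for several weeks. All cells were starved of serum for at least 14 h in medium with 0.1% FBS and then either collected (T0) or kept for 1, 12 or 24 h with EGF at 50 ng/mL, with HRG at 10 ng/mL or with water, the vehicle. Ligands and vehicle were given in fresh starvation medium, whereas T0 was collected straight after starvation. Every group had 2 libraries. No label says that the 2 libraries of a group came from separate cultures, so p-values measure the spread between these libraries, which may be technical, and each line is a single culture history, so a difference between the lines cannot be told apart from a difference between any 2 clones. Total counts per library were 19200632 to 29098915 in BT474 and 16794594 to 33387936 in BT474R. The epithelial markers were present in all 40 libraries (ERBB2 at 6120.0 to 9960.0 counts per 1000000, CPM, KRT19 at 1430.0 to 2430.0 CPM and GATA3 at 9.94 to 574 CPM). Of 11 markers of other cell types, PTPRC, CD3E, PECAM1, DCN, COL3A1, ACTA2 and KRT14 stayed under 1 CPM, KRT5 reached 2.42 CPM, and CD68 (1.03 to 4.76 CPM), COL1A1 (74.7 to 282 CPM) and VIM (23 to 92.1 CPM) were detected in every library.

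Both strands of mitochondrial DNA are copied into long RNAs that run through many genes. Transcription of the so-called heavy strand gives both rRNAs and most of the tRNAs and messages, and transcription of the light strand gives the remaining tRNAs and ND6. The tRNA genes lie between the others as punctuation, and their excision by the RNase P complex at the 5′ end and by ELAC2 at the 3′ end releases the flanking rRNAs and messages, most of which then receive a short poly(A) tail. The tRNAs and rRNAs serve only the ribosomes inside the organelle, which make the core subunits of respiratory complexes I, III, IV and V.

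The libraries were made with a kit that captures polyadenylated RNA, and the reads were longer than any of the tRNA genes, which measure 59 to 75 bases. A count in a tRNA row can therefore come from the tRNA, from an unprocessed precursor or from a neighbouring message that runs into it, and these cannot be told apart in the counts. RNR1 lies at chrM:648-1601, plus strand (954 bases) and RNR2 at chrM:1671-3229, plus strand (1559 bases) of GRCh38, with TRNV between them without a gap. Of the 22 tRNA genes, 8 are written on the minus strand (TRNQ, TRNA, TRNN, TRNC, TRNY, TRNS1, TRNE and TRNP) and come from light-strand transcription, and 14 on the plus strand. Identical copies of 7 tRNA genes stand in the nuclear genome. They are copies of TRNQ, TRNA, TRNN, TRNS1 and TRNE of the light strand and of TRNW and TRNK of the heavy strand. How the authors' counting treated reads that fit more than 1 place is not given in the sources used here. Whether reads were counted by strand is not given either, so a row may hold reads from the opposite strand.

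The tRNA genes whose rows moved most, or stood apart from the rest, are given here from RefSeq's GRCh38 sequence, so that their lengths and neighbours can be set beside the values, 5′ to 3′ on the strand of the gene, with the anticodon in capitals. TRNI (chrM:4263-4331, plus strand) follows ND1 directly. TRNH (chrM:12138-12206, plus strand), TRNS2 (chrM:12207-12265, plus strand) and TRNL2 (chrM:12266-12336, plus strand) form a run of 3 tRNA genes between ND4 and ND5. TRNS1 (chrM:7446-7514, minus strand) abuts the 3′ end of COX1 on the opposite strand. TRNC (chrM:5761-5826, minus strand) and TRNY (chrM:5826-5891, minus strand) share their end base between ND2 and COX1, and TRNP (chrM:15956-16023, minus strand) is the first gene that light-strand transcription meets.
TRNI: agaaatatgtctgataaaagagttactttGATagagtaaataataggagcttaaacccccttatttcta
TRNH: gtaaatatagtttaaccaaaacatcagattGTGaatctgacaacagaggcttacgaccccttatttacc
TRNS2: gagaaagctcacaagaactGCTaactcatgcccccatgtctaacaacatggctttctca
TRNL2: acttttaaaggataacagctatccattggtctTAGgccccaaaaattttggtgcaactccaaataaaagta
TRNS1: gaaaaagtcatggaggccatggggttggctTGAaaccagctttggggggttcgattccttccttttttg
TRNC: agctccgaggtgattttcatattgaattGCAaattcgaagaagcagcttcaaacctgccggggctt
TRNY: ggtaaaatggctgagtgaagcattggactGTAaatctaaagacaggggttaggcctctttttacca
TRNP: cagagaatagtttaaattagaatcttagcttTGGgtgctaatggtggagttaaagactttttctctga

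Ranks and shares are over the rows of the count table, in which no row had the RefSeq name of any of the 13 protein genes. RNR2 was the row with the most counts in 40 of 40 libraries, and RNR1 ranked between 3 and 18. Together they took 2.61% to 4.32% of the counts of a BT474 library and 2.01% to 2.59% of a BT474R library, so that the libraries of the lines did not overlap. In BT474 the share was 4.14 ± 0.25% (SD, n = 2) at T0, and 3.62 ± 0.06%, 3.75 ± 0.06% and 3.39 ± 0.08% in vehicle at 1, 12 and 24 h. In BT474R the corresponding shares were 2.41 ± 0.06%, 2.24 ± 0.23%, 2.43 ± 0.10% and 2.35 ± 0.31%, which differed among themselves by no more than the spread of their replicates. With ligand the BT474 groups ran from 3.0 ± 0.54% (HRG, 12 h) to 3.85 ± 0.12% (EGF, 1 h), and the BT474R groups from 2.06 ± 0.07% (HRG, 1 h) to 2.56 ± 0.04% (HRG, 12 h). Counts are relative to the rest of a library, so that less mitochondrial RNA per cell, fewer cells that hold it and more of other RNA cannot be told apart.

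Per kilobase, RNR2 stood above RNR1 in every library, by 2.6 to 4.02 times in BT474 and by 3.71 to 5.93 times in BT474R. The ratio of the 2 rRNAs in BT474 was 2.7 ± 0.03 (SD, n = 2) at T0 and 2.63 ± 0.03 after 1 h of vehicle, and reached 3.24 ± 0.32 at 12 h and 3.94 ± 0.08 at 24 h. In BT474R it was 5.52 ± 0.05 at T0, 4.38 ± 0.32 and 4.14 ± 0.49 in vehicle at 1 and 12 h, and 5.83 ± 0.15 at 24 h. It was lowest in this line in HRG at 12 h (3.73 ± 0.04), beside 5.5 ± 0.31 in EGF at the same time. RNR1 ranged more widely than RNR2, from 3735 to 7928 CPM against 22392 to 35263 CPM in BT474, and from 2057 to 3665 CPM against 17308 to 23250.0 CPM in BT474R.

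The 22 tRNA rows summed to 1464 to 3360.3 CPM in BT474 and 1149.8 to 2136 CPM in BT474R, and all 24 members passed the filter on low counts in both lines. TRNS1 alone held up to 39.0% of the tRNA counts of a BT474 library and up to 38.8% of a BT474R library. The rows with the lowest mean CPM in both lines were TRNA, at 1.38 to 3.77 CPM in BT474 and 1.59 to 4.08 CPM in BT474R, TRNQ, at 2.09 to 5.78 and 1.24 to 4.05 CPM, TRNF, at 2.44 to 10.3 and 1.34 to 5.78 CPM, and TRNS2, at 3.91 to 14.4 and 1.9 to 6.38 CPM. Rows were also summed by the strand of the gene, although whether reads were counted by strand is not given. Leaving out TRNS1, the 7 light-strand tRNA rows summed to less than the 14 heavy-strand rows in BT474 at T0. The ratio was 0.82 ± 0.03 (SD, n = 2), and in BT474R it was 1.57 ± 0.09. Of the 7, TRNE, which has an identical nuclear copy, had the highest mean, 400 CPM in BT474 and 361 CPM in BT474R. In vehicle at 1, 12 and 24 h this ratio was 0.83 ± 0.03, 1.04 ± 0.11 and 1.35 ± 0.03 in BT474, and 1.45 ± 0.04, 1.72 ± 0.08 and 2.37 ± 0.12 in BT474R.

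**Figure D1:**
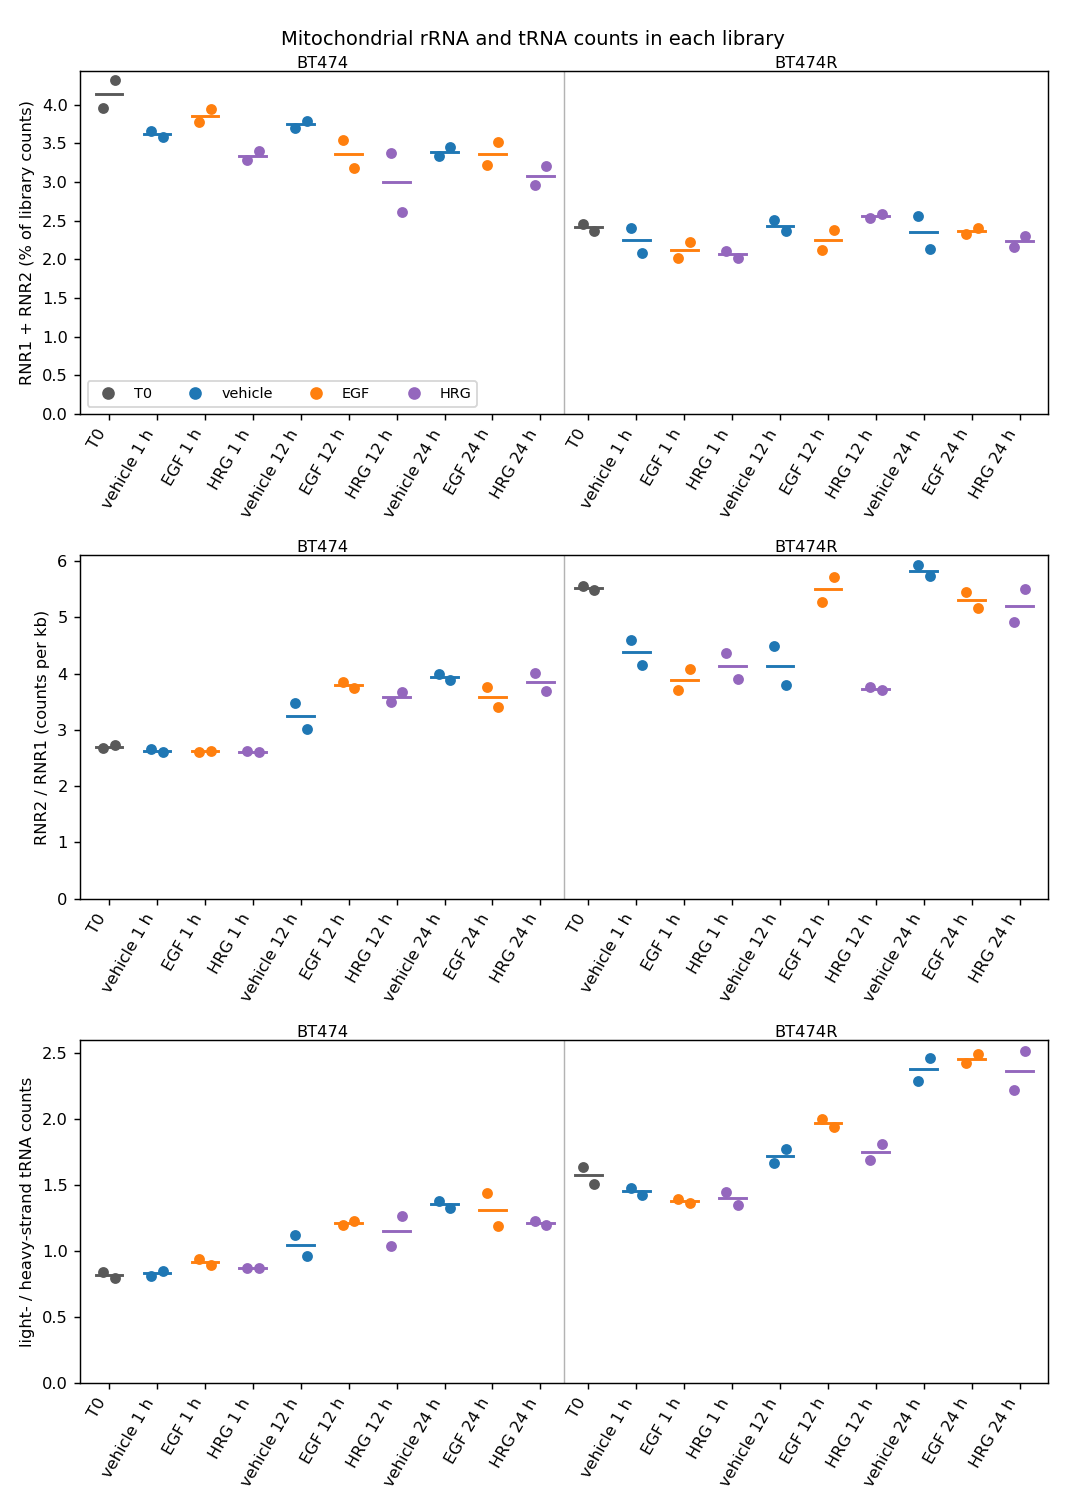
The share of counts on RNR1 and RNR2 (percent, top), the RNR2 to RNR1 ratio per kilobase (middle) and the ratio of light-strand to heavy-strand tRNA counts without TRNS1 (bottom) in each of the 40 libraries, by group, with points for libraries and lines for group means. All BT474 libraries lie at or above 2.61% rRNA and all BT474R libraries at or below 2.59%. The group mean of the rRNA ratio is highest in BT474R vehicle 24 h (5.83), and that of the tRNA ratio in BT474R EGF 24 h (2.46).

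Libraries that stood apart are named here before the tests. TRNS1 was below 200 CPM in 6 of the 40 libraries, which were BT474 vehicle 24 h replicate 2, BT474R T0 replicate 1, BT474R vehicle 1 h replicate 1, BT474R HRG 1 h replicate 1 and both BT474R EGF 12 h replicates. Each result on TRNS1 that rests on them is given with and without them, where a value without them can be had. Comparisons were made with edgeR's quasi-likelihood test, in which a gene was called where its adjusted p (Benjamini-Hochberg, over all genes tested) was under 0.05. Changes are log2 fold changes with their standard errors. Percentages in parentheses after a count of members are the share of all genes tested that was called in the same comparison. Counts under an alternative, such as DESeq2 or a fit without 1 library, are given without the share of all genes called under it. A difference from the main count therefore cannot be read as particular to the members.

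At T0, before ligand or vehicle was added, 21 of the 24 members were lower in BT474R than in BT474 and 0 were higher (46.9% of all genes). The median log2 difference was -1.10 over the members and 0.00 over all genes tested. RNR1 was at 7360.5 and 7928 CPM in the replicates of BT474 and at 2442 and 2378 CPM in those of BT474R, a log2 difference of -1.58 ± 0.09 (SE; edgeR adjusted p = 4.06e-18). RNR2 was at 32262 and 35263 CPM against 22162 and 21309 CPM, a smaller difference of -0.55 ± 0.08. Neither rRNA overlapped between the lines. The share of all genes without overlap at T0 is not given here. A lack of overlap, here and in the tRNAs that follow, therefore does not set the members apart.

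The 14 tRNA genes of heavy-strand transcription were all lower, with a median of -1.44, and 5 of the 8 of light-strand transcription were, with a median of -0.51. The 7 tRNA genes with an identical nuclear copy had a median of -0.79, and the 15 without one had a median of -1.26. Most light-strand tRNA genes have such a copy, and the part of strand and of copy in these differences was not tested. The run between ND4 and ND5 had some of the largest differences. TRNH, the histidine tRNA, was at 83.2 and 98.8 CPM in BT474 and 24 and 26.8 CPM in BT474R (-1.75 ± 0.23). TRNS2, which reads AGY serine codons, was at 11.2 and 14.4 against 2.5 and 4.06 CPM (-1.84 ± 0.30), and TRNL2, which reads CUN leucine codons, at 59.96 and 69.1 against 19.9 and 20.1 CPM (-1.60 ± 0.15). In each of the 3 the lines were apart in every library. TRNI, the isoleucine tRNA, was at 88.1 and 108 against 26.4 and 29.5 CPM (-1.72 ± 0.21) and TRNR, the arginine tRNA, at 139 and 170.3 against 44.8 and 47.8 CPM (-1.65 ± 0.21). TRNL1, the tRNA for UUR leucine codons that follows RNR2, differed less, with 265 and 307 against 191 and 198 CPM (-0.47 ± 0.12). Every one of these was lower in both BT474R libraries than in both BT474 libraries.

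The other 8 heavy-strand tRNAs were lower in BT474R as well. TRNG (glycine) was at 197 and 228 CPM in BT474 and 63 and 70.2 CPM in BT474R (-1.59 ± 0.16), TRNW (tryptophan) at 50.3 and 58.2 against 15.8 and 18.4 CPM (-1.57 ± 0.19), and TRNT (threonine) at 90.9 and 108 against 38 and 40.01 CPM (-1.26 ± 0.19). TRNF (phenylalanine) and TRNV (valine) flank RNR1. TRNF was at 6.02 and 6.3 against 2.8 and 2.01 CPM (-1.30 ± 0.27) and TRNV at 11.5 and 15.9 against 6.31 and 5.69 CPM (-1.10 ± 0.17). TRNM (methionine) was at 68.4 and 80.1 against 32.2 and 33 CPM (-1.10 ± 0.14). The smallest differences of these 8 were those of TRND (aspartate) and TRNK (lysine), which flank COX2. TRND was at 21.2 and 22.2 against 13.2 and 11.4 CPM (-0.75 ± 0.19), and TRNK at 86.2 and 103 against 50.1 and 53.3 CPM (-0.79 ± 0.18). In all 8 both BT474R libraries lay below both BT474 libraries, again without a share over all genes beside it.

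On the light strand TRNC, the cysteine tRNA, was at 102 and 116 CPM in BT474 and 67.8 and 62.5 CPM in BT474R (-0.66 ± 0.18), and TRNN, the asparagine tRNA, at 97.4 and 117 against 68.7 and 68.2 CPM (-0.56 ± 0.15). TRNE, the glutamate tRNA, was at 514 and 564 against 423 and 407 CPM (-0.29 ± 0.11) and TRNQ, the glutamine tRNA, at 4.5 and 5.78 against 2.14 and 2.89 CPM (-0.91 ± 0.28). TRNY, the tyrosine tRNA, was at 219 and 242 against 252 and 243 CPM (0.19 ± 0.08), TRNP, the proline tRNA, at 52 and 56.7 against 52.7 and 57.8 CPM (0.11 ± 0.08) and TRNA, the alanine tRNA, at 2.33 and 3.75 against 2.62 and 1.59 CPM (-0.45 ± 0.27). None of these 3 passed the test at T0, and TRNA passed in none of the 34 comparisons made. TRNS1, the tRNA for UCN serine codons, was at 797 and 865 against 186 and 533 CPM (-1.12 ± 0.42). Its difference was -0.60 ± 0.17 without the libraries under 200 CPM, and was still called.

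**Figure D2:**
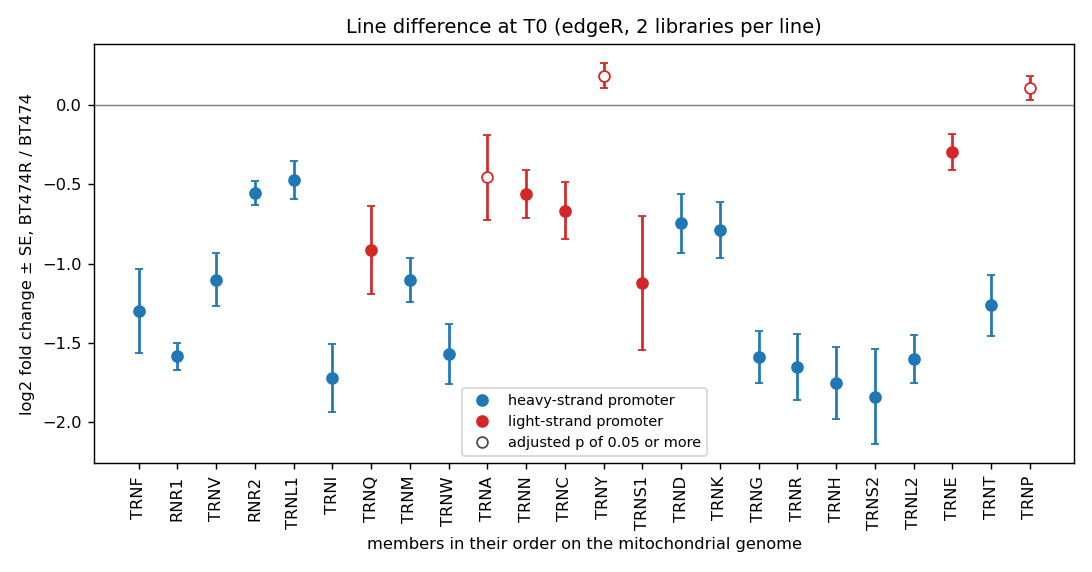
Log2 difference of each of the 24 members between BT474R and BT474 at T0, with standard errors as bars and filled symbols for members called by edgeR, blue for heavy-strand and red for light-strand transcription. RNR1, RNR2 and the 14 heavy-strand tRNAs lie below 0, whereas TRNY and TRNP of the light strand (red) lie above it without being called.

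In vehicle the gap between the lines was also seen at each time, for fewer members at 12 and 24 h than at 1 h. At 1 h 20 members were lower in BT474R and 1, TRNY, was higher (50.2% of all genes), with a median of -0.82 beside -0.04 over all genes. At 12 h 16 were lower and 1, again TRNY, higher (49.0%, median -0.60), and at 24 h 12 were lower and 3 higher (49.3%, median -0.48). Without BT474 vehicle 24 h replicate 2, a library of low TRNS1, 8 members were called at 24 h in place of 15, and 9 without all 6 libraries of low TRNS1. TRNS1 at 1 h was at 688 and 614 against 137 and 397 CPM (-1.15 ± 0.42), and its difference was -0.58 ± 0.17 without the libraries of low TRNS1, still called. Of the 14 heavy-strand tRNAs 13 were lower at 1 h, 14 at 12 h and 10 at 24 h, with medians of -1.22, -0.71 and -0.60. TRNI was at 33.4 and 66.1 against 21 and 32.1 CPM at 12 h (-0.78 ± 0.21) and at 27.9 and 31 against 16.5 and 14.9 CPM at 24 h (-0.80 ± 0.24). RNR1 differed by -1.19 ± 0.08, -0.83 ± 0.08 and -0.93 ± 0.08 at 1, 12 and 24 h, and RNR2 by -0.46 ± 0.08, -0.48 ± 0.08 and -0.36 ± 0.08. The 3 that were higher in BT474R at 24 h were all of the light strand. TRNY was at 191 and 209.9 CPM in BT474 and 266 and 237 CPM in BT474R (0.43 ± 0.08), TRNN at 66.5 and 64 against 78.5 and 80.5 CPM (0.39 ± 0.15) and TRNP at 63.1 and 61.5 against 69.996 and 78.4 CPM (0.36 ± 0.07). The comparisons at T0, 1, 12 and 24 h share no library.

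The vehicle groups show how the mitochondrial transcripts moved from T0 in starved cells that received water in fresh starvation medium. Time and the change of medium cannot be told apart in this comparison. All 3 vehicle times are compared with the same T0 libraries. In BT474 2 members fell at 1 h (6.61% of all genes), 10 at 12 h (6.41%) and 22 at 24 h (11.4%), and 0 rose. The medians were -0.13, -0.33 and -0.89, beside 0.01, 0.00 and -0.01 over all genes. DESeq2 called 0, 4 and 18. At 1 h 0 members were called without T0 replicate 2 and 1 without either vehicle replicate, and at 12 h 3 without vehicle replicate 1.

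At 24 h in BT474 vehicle RNR1 was at 4433 and 4701 CPM, below the 7360.5 and 7928 CPM of T0 in every library (-0.77 ± 0.07, edgeR adjusted p = 4.70e-10), and RNR2 at 28945 and 29787 CPM, against 32262 and 35263 CPM (-0.23 ± 0.05). All 14 heavy-strand tRNAs fell, with a median of -1.29, and 6 of the 8 light-strand tRNAs, with a median of -0.63. The median was -0.74 over the 7 tRNAs with an identical nuclear copy and -1.28 over the 15 without one. TRNI fell the most: it was at 88.1 and 108 CPM at T0, 83.9 and 67.7 CPM at 1 h, 33.4 and 66.1 CPM at 12 h and 27.9 and 31 CPM at 24 h (-1.76 ± 0.19). The changes of TRNS2 and TRNH were -1.62 and -1.61, and those of TRNW, TRNR and TRNM -1.44, -1.40 and -1.28. TRNS1 went from 797 and 865 to 571 and 199 CPM (-1.14 ± 0.20), and its change was -0.55 ± 0.12 without the replicate under 200 CPM, still called. The smallest falls called were those of TRNY (219 and 242 to 191 and 209.9 CPM, -0.22 ± 0.07) and RNR2. TRNP, with 52 and 56.7 CPM at T0 and 63.1 and 61.5 CPM at 24 h (0.17 ± 0.06), and TRNA (-0.43 ± 0.25) did not pass.

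In BT474R vehicle the members moved in both directions. At 1 h 2 rose and 1 fell (2.24% of all genes): TRNF, the phenylalanine tRNA just upstream of RNR1, rose from 2.8 and 2.01 to 4.49 and 4.76 CPM (1.00 ± 0.22), RNR1 rose (0.22 ± 0.05) and TRNE fell (-0.40 ± 0.09). At 12 h RNR1 (0.41 ± 0.05) and TRNN (0.41 ± 0.10) rose and TRNL1 fell (-0.43 ± 0.11), in a comparison where 1.13% of all genes were called. At 24 h 9 fell and 1 rose (13.7%), with a median of -0.26 beside 0.02 over all genes. The 9 were all heavy-strand tRNAs, and 8 of them have no identical nuclear copy. TRNM went from 32.2 and 33 to 20.9 and 14.7 CPM (-0.86 ± 0.15), TRNI from 26.4 and 29.5 to 16.5 and 14.9 CPM (-0.82 ± 0.16) and TRNL1 from 191 and 198 to 134 and 95.2 CPM (-0.75 ± 0.11). TRNP was the member that rose, from 52.7 and 57.8 to 69.996 and 78.4 CPM (0.43 ± 0.08). RNR1 at 24 h (2398 and 2057 CPM, against 2442 and 2378 CPM at T0, -0.10 ± 0.05) did not pass. Of the 10 calls at 24 h, 5 were left when both lines were fitted together, 5 without T0 replicate 2, 6 without vehicle replicate 2, and 6 without the libraries of low TRNS1, where 0 of the 3 calls at 1 h and 1 of the 3 at 12 h were left. At 1 h 0 members were called without T0 replicate 2 or vehicle replicate 2 and 1 without T0 replicate 1 or vehicle replicate 1, and at 12 h 1 without either T0 replicate or vehicle replicate 2. The difference between the lines in the change with time was not tested.

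**Figure D3:**
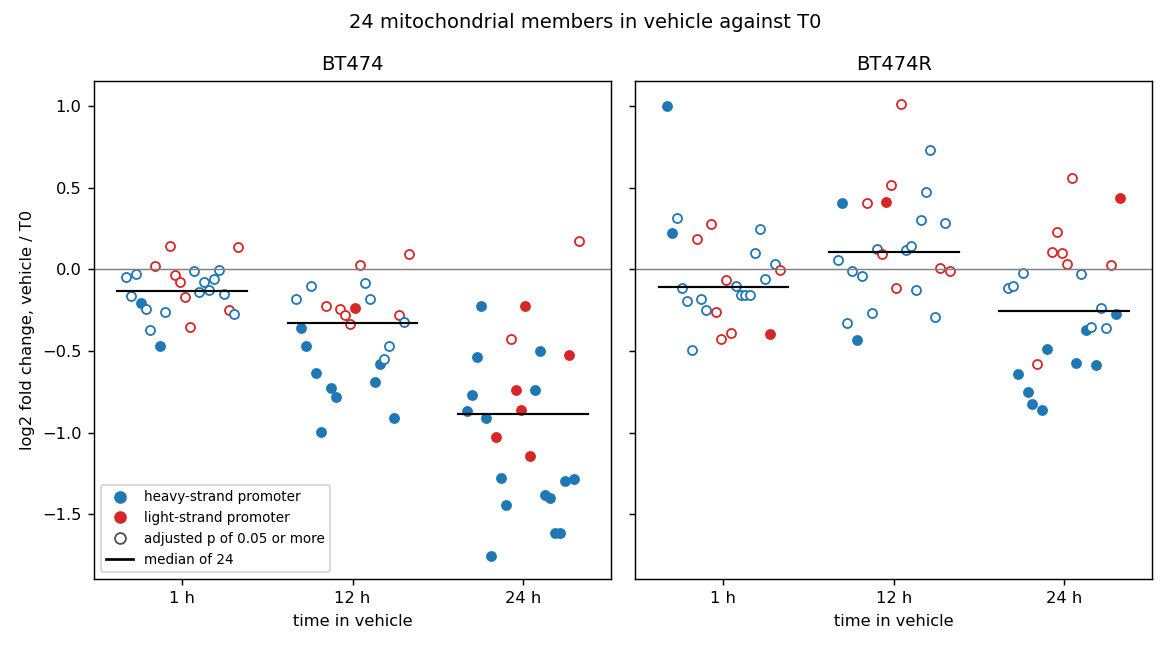
Log2 change from T0 of each of the 24 members in vehicle at 1, 12 and 24 h, in BT474 and BT474R, with symbols filled for members called by edgeR. In BT474 22 members are called as lower at 24 h, and in BT474R 9 are, with TRNP above 0.

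The effect of a ligand is its difference from the vehicle libraries of that line and time, which the EGF and HRG comparisons therefore share. At 1 h few members responded. In EGF-BT474 1 member fell (2.19% of all genes) and in HRG-BT474 2 fell (2.77%), of which TRNL2 was in both: it was at 62.7 and 53.3 CPM in vehicle, 33.8 and 43.8 CPM in EGF (-0.53 ± 0.11) and 38.8 and 43.7 CPM in HRG (-0.45 ± 0.12). The second in HRG-BT474 was TRNP, at 57.5 and 61.9 CPM in vehicle and 47.9 and 50.7 CPM in HRG (-0.24 ± 0.06). DESeq2 called 0 in both. In EGF-BT474 0 members were called without vehicle replicate 1 or without EGF replicate 1 and 2 without EGF replicate 2, and in HRG-BT474 0 without either HRG replicate and 1 without either vehicle replicate. For EGF-BT474R edgeR called 0 of 24 (0.457% of all genes), with 7 at an unadjusted p under 0.05 and 0 called by DESeq2. For HRG-BT474R edgeR called 0 of 24 (0.169% of all genes), with 1 at an unadjusted p under 0.05 and 0 called by DESeq2.

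At 12 h the members fell in 3 of the 4 comparisons. In EGF-BT474 14 fell and 0 rose (16.0% of all genes), with a median of -0.35 beside -0.03 over all genes. In HRG-BT474 20 fell and 0 rose (25.8%), with a median of -0.60 beside -0.02. In EGF-BT474R 15 fell and 0 rose (12.0%), with a median of -0.45 beside -0.01, while in HRG-BT474R 0 fell and 2 rose (4.12%), with a median of 0.06 beside -0.02. The counts in BT474 depended on the tool and on single libraries. DESeq2 called 1 in EGF-BT474 and 12 in HRG-BT474, and 15 in EGF-BT474R, and the share of all genes that it called is not given here. Without BT474 vehicle 12 h replicate 2, 2 members were called in EGF-BT474 and 11 in HRG-BT474, and 6 were called in HRG-BT474 without HRG replicate 2 and 4 in EGF-BT474 without EGF replicate 2. In EGF-BT474R 7 were called without EGF replicate 1 and 7 without vehicle replicate 2.

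In HRG-BT474 at 12 h both rRNAs fell. RNR1 was at 5553 and 6394 CPM in vehicle and 5043 and 3735 CPM in HRG (-0.39 ± 0.07), and RNR2 at 31481 and 31521 CPM against 28771 and 22392 CPM (-0.24 ± 0.05). The HRG libraries lay below those of vehicle, but replicate 2 lay much further below than replicate 1. In the tRNAs that follow, too, HRG replicate 1 lay closer to vehicle than HRG replicate 2. TRNI was at 33.4 and 66.1 CPM in vehicle and 30.3 and 19.8 CPM in HRG (-0.93 ± 0.19), TRNW at 23.7 and 39.7 against 20.7 and 13.2 CPM (-0.85 ± 0.17) and TRNC at 67.8 and 106 against 55.5 and 39.4 CPM (-0.82 ± 0.16). Of the heavy-strand tRNAs 13 of 14 fell (median -0.67) and of the light-strand tRNAs 5 of 8 (median -0.40). Of the 7 tRNAs with an identical nuclear copy 3 fell, and of the 15 without one 15 fell. TRNA, TRNK, TRNQ and TRNS1 did not pass.

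In EGF-BT474 at 12 h RNR1 was at 4863 and 4481 CPM, below vehicle in both replicates (-0.31 ± 0.07), whereas RNR2, at 30577 and 27389.6 CPM, did not pass (-0.07 ± 0.05). The largest falls were those of TRNH, with 60.9 and 63.4 CPM in vehicle and 33.5 and 31.7 CPM in EGF (-0.88 ± 0.20), and TRNT, the threonine tRNA after CYTB, with 78.8 and 79.9 against 43.1 and 41.5 CPM (-0.86 ± 0.18). TRNI and TRNR had the same change of -0.73, and the light-strand TRNC one of -0.71. Beside them TRNL2, TRNV and TRNF had changes of -0.19, -0.16 and -0.15 that did not pass.

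In EGF-BT474R at 12 h RNR1 was at 3005 and 3287 CPM in vehicle and 2206 and 2301 CPM in EGF (-0.43 ± 0.05, edgeR adjusted p = 6.04e-06), with no overlap, and RNR2 had a change of -0.01 ± 0.07 that did not pass. TRNS2 was at 5.15 and 5.73 CPM in vehicle and 1.9 and 2.07 CPM in EGF (-1.40 ± 0.33) and TRNH at 33 and 36.3 against 16.8 and 16.9 CPM (-0.98 ± 0.14). TRNL2, which follows these 2 in the same run, had a change of 0.01 ± 0.14. TRNS2 also differed between the replicates of BT474R T0, vehicle 1 h and HRG 1 h, in the direction of TRNS1, with values given below. TRND was at 13.2 and 13 against 6.64 and 7.37 CPM (-0.85 ± 0.12) and TRNI at 21 and 32.1 against 13.7 and 16.6 CPM (-0.77 ± 0.16). TRNS1 had the largest fall, from 722 and 709.8 to 182 and 135 CPM (-2.12 ± 0.50). Both EGF libraries of this group are among the 6 under 200 CPM of TRNS1, so no value without them can be had, and their part in the falls of the other members was not tested. In HRG-BT474R at 12 h RNR1 was at 3537 and 3665 CPM (0.22 ± 0.05) and TRNC at 119 and 128 CPM, against 72.1 and 110.2 CPM in vehicle (0.46 ± 0.12). These were the 2 rises, and 0 members were called without vehicle replicate 1 or HRG replicate 2, 1 without HRG replicate 1 and 4 without vehicle replicate 2. Both calls were lost with both lines in 1 fit and with only the libraries compared, DESeq2 called 1, and 4 were called without the filter on low counts.

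At 24 h fewer members were called than at 12 h, and the difference between the times was not tested. In EGF-BT474 4 members rose and 0 fell (16.4% of all genes, median 0.12) and in HRG-BT474 4 rose and 3 fell (24.1%, median -0.02). Called members made up 16.7% and 29.2% of the 24, near the shares of all genes, so these calls do not set the members apart. The counts of members depended on the tool and the fit. DESeq2 called 2 in EGF-BT474 and 4 in HRG-BT474. The fit of both lines together called 1 and 3, and the fit without a filter on low counts 11 and 14. With only the libraries compared, 10 were called in EGF-BT474. TRNS2 and TRNS1 rose in both. TRNS2 was at 4.31 and 4.13 CPM in vehicle, 5.35 and 8.16 CPM in EGF (0.71 ± 0.24) and 7.15 and 10.3 CPM in HRG (1.07 ± 0.22). TRNS1 was at 571 and 199 CPM in vehicle, 783 and 835 CPM in EGF (1.13 ± 0.20) and 678 and 763 CPM in HRG (0.95 ± 0.20). Without the vehicle replicate under 200 CPM the TRNS1 changes were 0.54 ± 0.12 and 0.37 ± 0.12, both still called, and 1 member in all was called in EGF-BT474. In that comparison 2 were called without vehicle replicate 1 and 11 without EGF replicate 1. TRNQ (0.72 ± 0.22) and TRNC (0.53 ± 0.16) completed the EGF rises, and TRNH (0.93 ± 0.20) and TRNR (0.49 ± 0.18) the HRG rises. TRNL1 (-0.31 ± 0.09), TRNM (-0.34 ± 0.12) and TRNY (-0.32 ± 0.07) fell in HRG-BT474. In EGF-BT474R 1 member, RNR1, rose (17.3%), from 2398 and 2057 to 2352 and 2548 CPM (0.22 ± 0.05), so that the libraries overlapped. This call was lost without EGF replicate 2 and with both lines in 1 fit, and 2 members were called without vehicle replicate 2. For HRG-BT474R edgeR called 0 of 24 (2.78% of all genes), with 3 at an unadjusted p under 0.05 and 0 called by DESeq2. Without HRG replicate 2, 1 member was called.

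**Figure D4:**
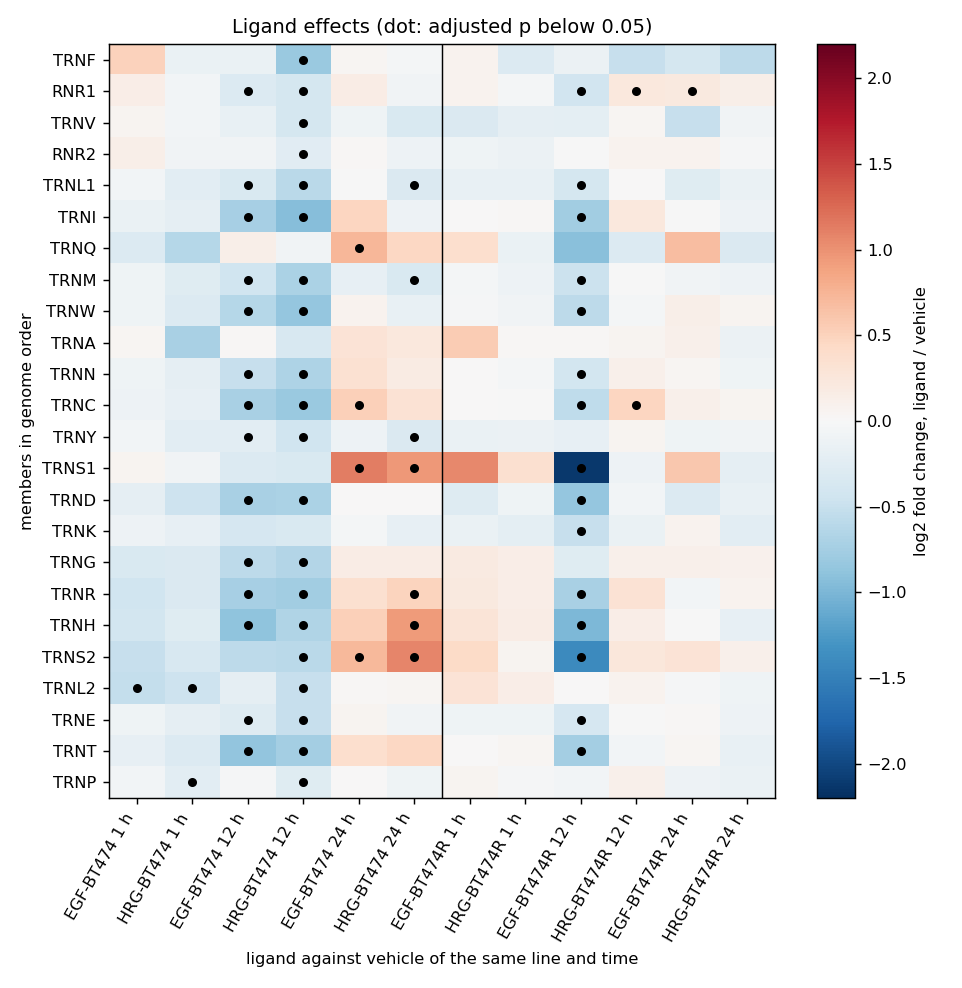
Log2 change against vehicle of the same line and time (colour) for the 24 members (rows) in the 12 ligand comparisons (columns), with a dot in the cells called by edgeR. Most dotted falls stand at 12 h in EGF-BT474 (14), HRG-BT474 (20) and EGF-BT474R (15), and not in HRG-BT474R. Further falls stand at 1 h in EGF-BT474 (1) and HRG-BT474 (2) and at 24 h in HRG-BT474 (3).

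The ligands were compared directly within each line and time. In BT474 at 1 h edgeR called 0 of 24 (0.139% of all genes), with 6 at an unadjusted p under 0.05 and 0 called by DESeq2. At 12 h in BT474 1 member, TRNP, was lower in HRG than in EGF (2.17%), at 49 and 44 against 54.2 and 56 CPM (-0.24 ± 0.06). This call was lost without either EGF replicate, and 8 members were called without HRG replicate 1. At 24 h in BT474 edgeR called 0 of 24 (0.768% of all genes), with 6 at an unadjusted p under 0.05 and 0 called by DESeq2. In BT474R at 1 h edgeR called 0 of 24 (0.0494% of all genes), with 2 at an unadjusted p under 0.05 and 0 called by DESeq2. At 12 h in BT474R 12 members were higher in HRG than in EGF and 0 lower (1.42% of all genes, median 0.48 beside 0.00), and 7 without HRG replicate 1 and 6 without EGF replicate 1. RNR1 stood at 3537 and 3665 CPM in HRG and 2206 and 2301 CPM in EGF (0.65 ± 0.05, edgeR adjusted p = 9.99e-08). TRNS1 (2.00 ± 0.50), TRNS2 (1.65 ± 0.32), TRNH (1.13 ± 0.14), TRNC (1.03 ± 0.13), TRNR (1.02 ± 0.13) and TRNI (1.00 ± 0.15) had the largest differences. The TRNS1 value has no counterpart without the libraries of low TRNS1, since both EGF libraries are among them. At 24 h in BT474R 1 member, TRNK (lysine), was lower in HRG (5.18%; -0.30 ± 0.08). It was lost without HRG replicate 1 or either EGF replicate, and 2 members were called without HRG replicate 2.

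Whether a ligand acted differently in the lines was tested as the interaction of ligand and line in a fit of all 40 libraries. The HRG effect at 12 h differed for 9 members, all with a higher change in BT474R than in BT474 (4.07% of all genes, median 0.59 beside -0.01), and DESeq2 called 7. The difference was 1.27 ± 0.25 for TRNC (edgeR adjusted p = 0.00159), 1.14 ± 0.31 for TRNI, 1.05 ± 0.28 for TRNR and 0.60 ± 0.12 for RNR1, whose change was -0.39 in BT474 and 0.22 in BT474R. The count rested on single libraries: it was 1 without BT474 vehicle 12 h replicate 2, 2 without replicate 2 of either HRG 12 h group, 3 without BT474R vehicle 12 h replicate 1, 4 without BT474R HRG 12 h replicate 1 and 17 without BT474 HRG 12 h replicate 1. For the EGF effect at 1 h edgeR called 0 of 24 (0.138% of all genes), with 6 at an unadjusted p under 0.05 and 0 called by DESeq2. At 12 h edgeR called 0 of 24 (1.96% of all genes), with 2 at an unadjusted p under 0.05 and 0 called by DESeq2, and at 24 h edgeR called 0 of 24 (4.01% of all genes), with 0 at an unadjusted p under 0.05 and 0 called by DESeq2. For the HRG effect at 1 h edgeR called 0 of 24 (0.544% of all genes), with 2 at an unadjusted p under 0.05 and 0 called by DESeq2, and at 24 h edgeR called 0 of 24 (3.33% of all genes), with 3 at an unadjusted p under 0.05 and 0 called by DESeq2.

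TRNS1 differed widely between the replicates of some groups. It ranged from 199 to 873 CPM in BT474 and from 117 to 775 CPM in BT474R, and in BT474R vehicle 1 h (137 and 397 CPM) and HRG 1 h (117 and 567 CPM) no other of the at least 14591 genes with a mean of 1 CPM or more differed as much between the replicates of the group. TRNS1 lies on the strand opposite to COX1, and whether reads were counted by strand is not given in the sources used here. The nuclear gene MIR12136, at chr1:632615-632685, holds an identical copy of TRNS1, and it was looked at after the values were seen. The nuclear and mitochondrial genomes are identical there over a run of 204 bases, so a read within that run fits both places. Whether the counts of both rows come from the same kind of read cannot be told. MIR12136 counts lay at 0.462 to 0.585 of those of TRNS1 in all 40 libraries. In the replicates of BT474R HRG 1 h, for example, MIR12136 was at 63.9 and 281 CPM. The log2 ratio of replicate 1 to 2 in BT474R T0, vehicle 1 h and HRG 1 h was -1.52, -1.53 and -2.28 for TRNS1. For TRNS2 it was -0.69, -0.78 and -1.30, and for TRNQ -0.42, -0.60 and -1.02. In BT474 vehicle 24 h it was 1.52 for TRNS1, 0.06 for TRNS2 and 0.55 for TRNQ. RN7SK, the nuclear 7SK RNA, made by RNA polymerase III without a poly(A) tail, was also chosen after the values were seen. It was at 9.04 CPM in BT474 vehicle 24 h replicate 2, at 5.24, 9.07 and 8.24 CPM in replicate 1 of BT474R T0, vehicle 1 h and HRG 1 h, and at 7.87 and 5.21 CPM in the BT474R EGF 12 h libraries. Its range over all 40 libraries was 5.21 to 56.1 CPM, and BT474R T0 replicate 2, at 6.44 CPM of RN7SK, had 533 CPM of TRNS1. What sets these levels was not tested.

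**Figure D5:**
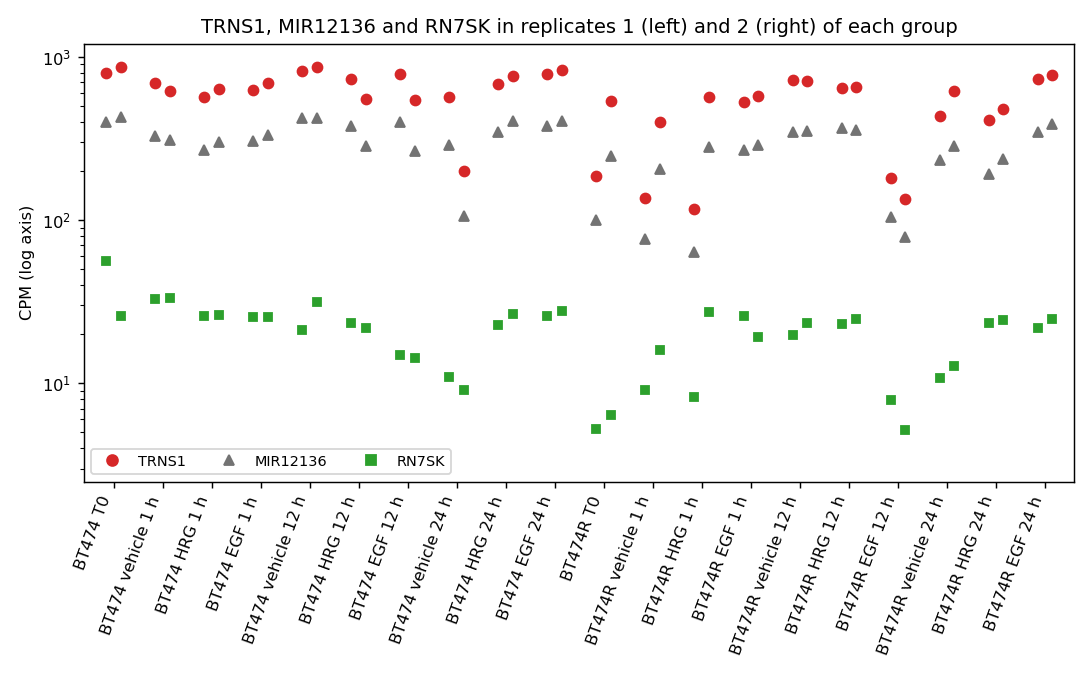
CPM of TRNS1, MIR12136 and RN7SK (log axis) in the replicates of each of the 20 groups, replicate 1 on the left. MIR12136 lies at 0.462 to 0.585 of TRNS1 in every library, and 6 libraries lie below 200 CPM of TRNS1.

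The proteins that copy, process and use the mitochondrial transcripts are encoded in the nucleus, and 12 lists of their genes were counted beside the members. Between the lines at T0, where 46.9% of all genes were called, the lists moved in both directions. Of 9 genes of mitochondrial transcription 2 were higher and 5 lower in BT474R: POLRMT, the mitochondrial RNA polymerase, was at -0.29 ± 0.07, the elongation factor TEFM at -0.66 ± 0.10 and the initiation factor TFB2M at 0.54 ± 0.06, while TFAM, which packs and bends the DNA at the promoters, did not pass (-0.03 ± 0.05). Of 27 genes of RNA processing and decay 8 were higher, with LRPPRC, which stabilizes the messages, at 0.24, PNPT1, the degrading nuclease, at 0.22 and GRSF1 at 0.17, and 10 lower, with ELAC2 at -0.23 and TRMT10C, a subunit of RNase P, at -0.21. Of 11 biogenesis regulators 1 was higher, GABPA at 0.30, and 7 lower, with the coactivators PPARGC1A at -0.85, PPARGC1B at -0.49 and PPRC1 at -0.49, and NRF1 at -0.20. Of 14 genes of mitochondrial DNA replication 2 were higher and 7 lower, with the helicase TWNK at -0.71 and the polymerase POLG at -0.38. Higher and lower genes numbered 5 and 9 of 17 for tRNA modification, 8 and 7 of 22 for aminoacyl-tRNA synthetases and 18 and 29 of 81 for proteins of the mitochondrial ribosome.

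The nuclear subunits of the respiratory complexes at T0 were higher and lower in numbers of 14 and 6 of 37 for complex I, 2 and 1 of 4 for complex II, 3 and 2 of 9 for complex III, 7 and 3 of 11 for complex IV and 7 and 2 of 18 for complex V, in BT474R against BT474. In vehicle BT474 at 24 h, where 22 members fell and 11.4% of all genes were called, 0 genes of transcription rose and 1, POLRMT, fell (-0.28 ± 0.07), and of the ribosomal proteins 0 rose and 8 of 81 fell. In HRG-BT474 at 12 h, where 20 members fell and 25.8% of all genes were called, 19 of 81 ribosomal proteins were higher and 2 lower, and of the 27 genes of RNA processing and decay 8 rose and 5 fell. Among the genes named, PNPT1 (0.50 ± 0.06), PPRC1 (0.38 ± 0.05), PPARGC1B (0.37 ± 0.09), ESRRA (0.34 ± 0.06) and LRPPRC (0.27 ± 0.04) rose, and POLRMT (-0.01 ± 0.07) and TFAM (0.06 ± 0.05) did not pass. In EGF-BT474R at 12 h PNPT1 (0.41 ± 0.06) and PPRC1 (0.38 ± 0.06) rose, and 3 of 81 ribosomal proteins were higher and 0 lower, a smaller share than the 12.0% of all genes called. In HRG-BT474R at 12 h, where 4.12% of all genes were called, PPRC1 (0.31 ± 0.06) rose. The difference between the lines in the HRG effect at 12 h, which was above 0 for 9 members, was below 0 for LRPPRC (-0.36 ± 0.06), ESRRA (-0.34 ± 0.09), PNPT1 (-0.31 ± 0.09) and TFAM (-0.24 ± 0.07). The other genes always named, SLIRP, HSD17B10, PRORP, MTPAP, SUPV3L1 and SARS2, had differences between the lines at T0 of 0.00, 0.07, -0.02, -0.10, -0.06 and -0.04, none of which passed.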

How the data were processed

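RNA of 40 libraries was sequenced after poly(A) capture, 2 for each of 20 groups, which were assigned from the sample labels. The authors trimmed the reads (Trim Galore 0.6.6), aligned them to GRCh38.p13 and deposited raw counts per gene, with no normalization. The strand setting, the minimum overlap, the handling of reads with several places and the annotation release are not given in the sources used here. The counts were tested as deposited with edgeR 4.0.16 in R 4.3.3: genes with at least 1 count in 50% of the libraries of a fit were kept (25146 in BT474, 24287 in BT474R and 24641 in both), scaled by TMM (factors 0.936 to 1.08) and fitted by quasi-likelihood with 1 mean per group. Ligand, time and ligand-against-ligand comparisons used the 20 libraries of a line, and line and interaction comparisons all 40. The adjusted p is Benjamini-Hochberg's, over all genes of a fit.

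CPM are counts per 1000000 total counts of a library, and per-kilobase values use RefSeq gene lengths. At these depths the Wilson 95% interval of a library's rRNA share was at most 0.00909 percentage points wide on either side, and covers counting error only. Gene coordinates and sequences are from RefSeq on GRCh38. Members were named by their rows, with values per library for those a comparison turns on. The 23 nuclear genes always named belong to mitochondrial transcription, RNA processing, replication and biogenesis, and the 12 lists are of general knowledge. The members and lists were chosen with earlier results of these data known. On simulated counts of 23325 genes with 200 changed, the fit of EGF-BT474R at 12 h recovered 175, of which 0 were in the wrong direction, and called 7 unchanged genes. The changed genes had a mean count of at least 25, and all genes were drawn with 1 common spread (dispersion 0.003). The simulation therefore does not show how the test behaves on rows that vary more between replicates, such as TRNS1. Alternatives were DESeq2 1.42.0, its size factors in edgeR, scaling on nuclear genes, filterByExpr, no filter, only the libraries compared, both lines in 1 fit, thinning to equal depth, a replicate block, leaving out each library in turn, and, added after the data were seen, leaving out the libraries under 200 CPM of TRNS1 and adding MIR12136 to TRNS1.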

Additional observations from a re-analysis of the deposited data

Results flagged for a closer look

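For 9 members the response to HRG at 12 h differed between the lines by the test of the difference itself, in each case with a higher change in BT474R than in BT474. The difference of the log2 changes was 1.27 for TRNC, where the change was -0.82 in BT474 and 0.46 in BT474R. It was 1.14 for TRNI (-0.93 and 0.23), 1.05 for TRNR (-0.76 and 0.31), 0.77 for TRNN (-0.68 and 0.11) and 0.67 for TRNM (-0.69 and 0.00). It was 0.60 for RNR1 (-0.39 and 0.22), 0.59 for TRNL1 (-0.60 and 0.01), 0.47 for TRNY (-0.43 and 0.05) and 0.35 for TRNP (-0.26 and 0.10). The number of members so called fell to 1 without BT474 vehicle 12 h replicate 2 and reached 17 without BT474 HRG 12 h replicate 1, and BT474 HRG 12 h replicate 2 held 2.61% rRNA counts against 3.38% in replicate 1. The part of these libraries in the difference was not tested.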

How the results depend on the processing

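The 213 called member changes had 3041 values under the alternatives, of which 2630 kept their direction and call, 411 kept the direction and lost the call and 0 reversed. Of the 213, 92 were called under every alternative. Counts of called members moved as follows, and the cause was not tested. The share of all genes called under each alternative is not given here, so a moved count cannot be read as particular to the members. With DESeq2 the count went from 1 to 0 in EGF-BT474 1 h, 2 to 0 in HRG-BT474 1 h, 2 to 0 in vehicle BT474 1 h, 14 to 1 in EGF-BT474 12 h, 20 to 12 in HRG-BT474 12 h, 10 to 4 in vehicle BT474 12 h, 4 to 2 in EGF-BT474 24 h, 7 to 4 in HRG-BT474 24 h and 2 to 1 in HRG-BT474R 12 h. Without the filter on low counts the count went from 1 to 8 in EGF-BT474 1 h, 2 to 18 in HRG-BT474 1 h, 2 to 10 in vehicle BT474 1 h, 0 to 6 in HRG against EGF BT474 1 h, 10 to 18 in vehicle BT474 12 h, 1 to 10 in HRG against EGF BT474 12 h, 4 to 11 in EGF-BT474 24 h, 7 to 14 in HRG-BT474 24 h, 0 to 9 in HRG against EGF BT474 24 h, 0 to 1 in EGF-BT474R 1 h, 0 to 2 in HRG-BT474R 1 h, 3 to 9 in vehicle BT474R 1 h, 0 to 1 in HRG against EGF BT474R 1 h, 2 to 4 in HRG-BT474R 12 h, 3 to 9 in vehicle BT474R 12 h, 1 to 5 in EGF-BT474R 24 h, 0 to 2 in HRG-BT474R 24 h, 1 to 4 in HRG against EGF BT474R 24 h, 0 to 7 in EGF effect BT474R minus BT474 1 h, 0 to 4 in EGF effect BT474R minus BT474 12 h, 0 to 6 in EGF effect BT474R minus BT474 24 h, 0 to 5 in HRG effect BT474R minus BT474 1 h, 9 to 19 in HRG effect BT474R minus BT474 12 h and 0 to 7 in HRG effect BT474R minus BT474 24 h. With only the libraries compared in the fit the count went from 1 to 0 in EGF-BT474 1 h, 2 to 11 in HRG-BT474 1 h, 2 to 10 in vehicle BT474 1 h, 10 to 18 in vehicle BT474 12 h, 1 to 4 in HRG against EGF BT474 12 h, 4 to 10 in EGF-BT474 24 h, 0 to 1 in EGF-BT474R 1 h, 3 to 12 in vehicle BT474R 1 h, 2 to 0 in HRG-BT474R 12 h, 3 to 11 in vehicle BT474R 12 h, 1 to 0 in HRG against EGF BT474R 24 h, 0 to 6 in EGF effect BT474R minus BT474 1 h, 0 to 3 in EGF effect BT474R minus BT474 12 h, 0 to 3 in HRG effect BT474R minus BT474 1 h and 9 to 18 in HRG effect BT474R minus BT474 12 h. With libraries thinned to equal depth the count went from 2 to 1 in HRG-BT474 1 h and 1 to 0 in HRG against EGF BT474R 24 h. With both lines in 1 fit the count went from 2 to 0 in HRG-BT474 1 h, 2 to 1 in vehicle BT474 1 h, 1 to 0 in HRG against EGF BT474 12 h, 4 to 1 in EGF-BT474 24 h, 7 to 3 in HRG-BT474 24 h, 2 to 0 in HRG-BT474R 12 h, 1 to 0 in EGF-BT474R 24 h, 10 to 5 in vehicle BT474R 24 h and 1 to 0 in HRG against EGF BT474R 24 h. With filterByExpr the count went from 2 to 1 in vehicle BT474 1 h. Without the libraries under 200 CPM of TRNS1, an alternative chosen after seeing the data, the count went from 4 to 1 in EGF-BT474 24 h, 3 to 0 in vehicle BT474R 1 h, 3 to 1 in vehicle BT474R 12 h, 10 to 6 in vehicle BT474R 24 h and 15 to 9 in lines vehicle 24 h. DESeq2's size factors, scaling on nuclear genes and adding MIR12136 to TRNS1 moved no count by 1.5 times, and the first 2 shifted the median of all genes by -0.0428 to 0.0272 and -0.0415 to 0.019 on the log2 scale. Leaving out each library in turn, with the trend of the spread held from the fit of all libraries and a lone library assumed to vary like the others, gave lowest and highest counts of 0 and 2 in EGF-BT474 1 h, 0 and 1 in HRG-BT474 1 h, 0 and 2 in vehicle BT474 1 h, 0 and 1 in HRG against EGF BT474 1 h, 2 and 14 in EGF-BT474 12 h, 6 and 21 in HRG-BT474 12 h, 3 and 10 in vehicle BT474 12 h, 0 and 8 in HRG against EGF BT474 12 h, 1 and 11 in EGF-BT474 24 h, 5 and 8 in HRG-BT474 24 h, 18 and 20 in vehicle BT474 24 h, 1 and 2 in HRG against EGF BT474 24 h, 0 and 0 in EGF-BT474R 1 h, 0 and 0 in HRG-BT474R 1 h, 0 and 1 in vehicle BT474R 1 h, 0 and 0 in HRG against EGF BT474R 1 h, 7 and 13 in EGF-BT474R 12 h, 0 and 4 in HRG-BT474R 12 h, 1 and 3 in vehicle BT474R 12 h, 6 and 9 in HRG against EGF BT474R 12 h, 0 and 2 in EGF-BT474R 24 h, 0 and 1 in HRG-BT474R 24 h, 5 and 8 in vehicle BT474R 24 h, 0 and 2 in HRG against EGF BT474R 24 h, 18 and 21 in lines T0, 18 and 21 in lines vehicle 1 h, 12 and 15 in lines vehicle 12 h, 8 and 15 in lines vehicle 24 h, 0 and 0 in EGF effect BT474R minus BT474 1 h, 0 and 0 in EGF effect BT474R minus BT474 12 h, 0 and 0 in EGF effect BT474R minus BT474 24 h, 0 and 1 in HRG effect BT474R minus BT474 1 h, 1 and 17 in HRG effect BT474R minus BT474 12 h and 0 and 1 in HRG effect BT474R minus BT474 24 h.

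The labels link libraries of different groups only by the replicate number, and do not say whether replicates were paired. Same-numbered libraries correlated in their deviations from the group means at -0.0848 to 0.338 over 45 pairs of groups in BT474. In BT474R the range was -0.276 to 0.461. Correlations were above 0.1 in 9 and 15 pairs and below -0.1 in 0 and 9. With the replicate number as a block the count of members went from 3 to 5 in vehicle BT474R 12 h. It went from 2 to 3 in HRG-BT474 1 h and from 2 to 3 in HRG-BT474R 12 h, and moved by less than 1.5 times in the other comparisons within a line. With 2 libraries per group a call rests on a spread pooled over groups. The rows of least depth, TRNA, TRNQ, TRNF and TRNS2, had under 15 CPM, and the counts do not separate a tRNA from its precursors or neighbours.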

Other observations

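The nuclear genes named MTRNR2L, which resemble RNR2 and carry a reading frame for humanin-like peptides, had 11 rows. Together they held 75.1 to 148 CPM in BT474 and 46.9 to 97.5 CPM in BT474R, beside RNR2 at 22392 to 35263 and 17308 to 23250.0 CPM. Whether counts on them come from reads of RNR2 was not tested.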
